A study of Homo sapiens with 6 samples.

Results

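The genes described here are 10 nuclear genes whose products copy and repair mt-DNA or supply its nucleotides: POLG, POLG2, SSBP1, TK2, DGUOK, RRM2B, TOP1MT, MGME1, RNASEH1 and TOP3A. They were named by function, in a list chosen with earlier results of these data known. Of the 19330 genes in the count table, 9 of the 10 were analysed, RRM2B was not analysed here, and 8 had enough counts to be tested, TK2 being the exception. K562, a human cell line established from a chronic myelogenous leukemia, received pLentiCRISPRv2, a lentiviral vector carrying Cas9 and an sgRNA, directed either at N6AMT1 (sgN6AMT1) or at a control gene (sgCtrl), were selected with puromycin and were collected on day 10. RNA-Seq was done on 3 independent transductions per condition. The cells of a transduction were a pool and not a clone, so a change in every cell and a larger change in some of the cells cannot be told apart, and which sgRNA each library carried was not given. The question is whether the steady-state levels of these transcripts differed after depletion of N6AMT1, a methyltransferase of the cytosol and nucleus.

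Mitochondrial DNA is a small circular genome that is copied independently of the cell cycle, by a machinery made up entirely of nuclear-encoded proteins. DNA polymerase gamma, the Twinkle helicase and a mitochondrial single-stranded DNA-binding protein form the minimal replisome, while nucleases remove primers and flaps, and topoisomerases relieve torsion and separate the daughter circles. Because mitochondria replicate their genome also outside S phase, they depend on their own deoxynucleoside kinases for precursors, and inherited loss of function of several of these genes leads to depletion or deletion of mt-DNA.

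Depth was low and uneven. Total counts in replicates 1 to 3 were 742470, 866894 and 866155 for sgCtrl and 959319, 5526904 and 4062363 for sgN6AMT1, so that a count in the shallowest library was worth 1.35 cpm (counts scaled to a fixed library total). Values below are cpm after scaling of the libraries by edgeR's trimmed mean of M-values (TMM), called normalized cpm. The targeted transcript, N6AMT1, was covered by 6, 5 and 9 sgCtrl counts and by 0, 18 and 16 sgN6AMT1 counts, or 8.08 ± 2.31 and 2.40 ± 2.11 cpm of the total counts (SD, n = 3), and an exact two-sided permutation test gave p = 0.1, below which a comparison of 3 with 3 cannot go. All 10 erythroid markers examined were detected in K562, and their summed normalized cpm was 11632 to 18907 in sgCtrl and 19037 to 35635 in sgN6AMT1. HBE1 and the near-identical HBG1 and HBG2, between which reads may have been split, rose and LMO2 fell (edgeR, adjusted p under 0.05), although HBG1 and HBG2 overlapped between the conditions in their levels. HBZ and TFRC were lower in every sgN6AMT1 library than in any sgCtrl library without passing the test. Of 7 markers of other cell types, MS4A1 was at 0 in every library and EPCAM and LYZ passed the filter on low counts, and LYZ rose, with summed levels of 164 to 211 and 157 to 202 normalized cpm for the 7. EPCAM made up most of this sum, at 139.8, 169.6 and 155.6 in sgCtrl and 157.0, 117.5 and 98.2 in sgN6AMT1. The part of these marker differences in the results below was not tested.

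None of the 8 tested mt-DNA maintenance transcripts was differentially expressed in N6AMT1-depleted cells. In edgeR's quasi-likelihood test, with p-values adjusted by Benjamini-Hochberg across the 8324 genes tested and a threshold of 0.05, 0 of the 8 passed, and 9.85% of all genes did. DESeq2 likewise called 0 of the 9 transcripts it could test, against 6.7% of all genes. Before adjustment, MGME1 alone was under 0.05, or 1 of 8 against 26.2% of all genes. The fold changes were small. On the log2 scale they reached from -0.25 for SSBP1 to 0.67 for MGME1, with 6 positive and 2 negative and a median of 0.21, whereas the median over all genes tested was 0.0087. The 95% interval of the log2 fold change lay within -1 and 1 for 7 of the 8, and for the remaining gene, MGME1, it reached up to 1.32. A decrease of 1 or more on the log2 scale was outside the interval of all 8. Not passing the threshold does not show that the levels were equal.

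**Figure D1:**
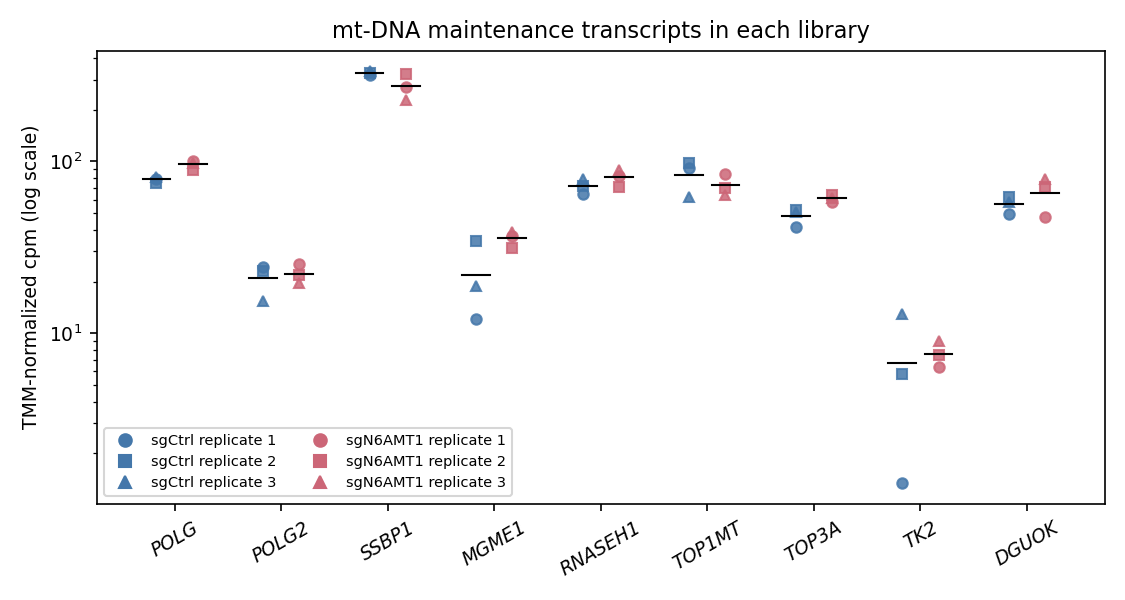
Normalized cpm (log scale) of the 9 analysed transcripts in each library, with sgCtrl in blue, sgN6AMT1 in red, a marker shape for each replicate and a bar at the mean of 3 libraries. The conditions are separate for POLG and TOP3A, and overlap for the other 7 transcripts.

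**Figure D2:**
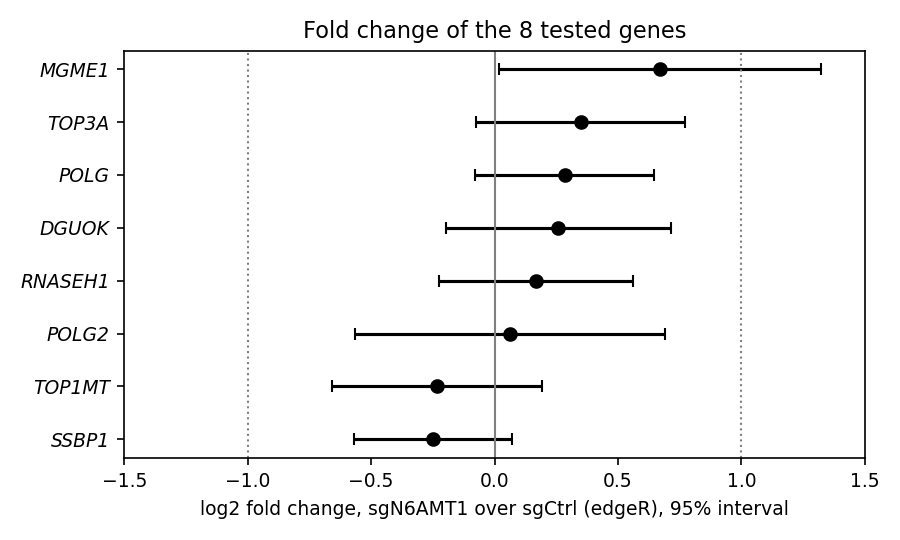
Log2 fold change (sgN6AMT1 over sgCtrl) of the 8 tested transcripts from edgeR, with the 95% interval as bars and dotted lines at -1 and 1. Every interval except that of MGME1 includes 0, and only MGME1 reaches past 1.

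Transcripts of the polymerase were examined first. POLG encodes the catalytic subunit of DNA polymerase gamma, which both copies and proofreads mt-DNA, and lies on chromosome 15 from 89305198 to 89334861 on the minus strand (GRCh38, GENCODE v44, as for all positions given here). POLG stood at 79.3, 75.0 and 81.3 normalized cpm in sgCtrl and at 100.1, 89.8 and 98.5 in sgN6AMT1. Each sgN6AMT1 library was above each sgCtrl library, and replicates of a condition lay close together. The means were 78.5 ± 3.24 and 96.1 ± 5.54 (SD, n = 3), a ratio of 1.22, and the fitted log2 fold change was 0.29 (standard error 0.17, edgeR adjusted p = 0.310). Non-overlap of this kind, in either direction, was found in 29.2% of all genes tested. FANCI, a DNA crosslink repair gene, overlaps POLG on the opposite strand, and although the library kit was stranded, the use of strand in counting is not given, so reads of the pair may not have been separated. FANCI was at 252 ± 25.5 in sgCtrl and 211 ± 19.7 in sgN6AMT1 (log2 fold change -0.25, edgeR adjusted p = 0.303), with the opposite sign to POLG.

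The accessory subunit, encoded by POLG2 (chromosome 17, 64477785 to 64497054, minus strand), helps the polymerase stay on its template. POLG2 had 24.2, 23.1 and 15.3 normalized cpm in sgCtrl and 25.3, 21.9 and 19.5 in sgN6AMT1. The conditions overlapped, with the lowest value in sgCtrl replicate 3. The means were 20.9 ± 4.83 and 22.2 ± 2.89, and edgeR fitted a log2 fold change of 0.06 (standard error 0.30, 95% interval -0.56 to 0.69, edgeR adjusted p = 0.922), the smallest in size among the 8. The sgCtrl libraries held between 13 and 20 POLG2 counts each, and its fold change turned negative in some alternative fits.

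SSBP1 encodes the mitochondrial single-stranded DNA-binding protein that coats the displaced strand during replication (chromosome 7, 141738334 to 141787922, plus strand). Its level was 318.5, 326.5 and 334.8 normalized cpm in sgCtrl and 272.9, 321.8 and 229.1 in sgN6AMT1. Here sgCtrl was tight, at 327 ± 8.17, and sgN6AMT1 was spread out, at 275 ± 46.4, with sgN6AMT1 replicate 2 inside the sgCtrl range. The log2 fold change of -0.25 (standard error 0.15, 95% interval -0.57 to 0.07) did not pass the test (edgeR adjusted p = 0.315). SSBP1 had the narrowest interval of the 8 genes, and the most counts per library. Its fold change was negative, whereas those of POLG and POLG2 were positive.

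Processing enzymes came next. MGME1 encodes a mitochondrial exonuclease that trims single-stranded flaps left at the ends of replicated strands (chromosome 20, 17969018 to 17991122, plus strand). MGME1 had 12.1, 34.6 and 18.9 normalized cpm in sgCtrl and 36.9, 31.2 and 38.8 in sgN6AMT1. The sgN6AMT1 libraries agreed closely, and sgCtrl did not, sgCtrl replicate 2 being the only control library that reached the sgN6AMT1 range. The means were 21.9 ± 11.6 and 35.6 ± 3.95, with a log2 fold change of 0.67 (standard error 0.31), and the edgeR p of 0.0443 became 0.177 after adjustment. The sgCtrl values rested on 9, 30 and 16 counts. Without sgCtrl replicate 2 the log2 fold change was 1.17 (edgeR adjusted p = 0.0836), and without sgCtrl replicate 1 it was 0.40 (adjusted p = 0.495). OVOL2, the gene opposite MGME1, had 0 counts in every library.

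RNASEH1 encodes the ribonuclease H that removes RNA from RNA-DNA hybrids in nucleus and mitochondria, including the primers of mt-DNA replication (chromosome 2, 3541430 to 3558333, minus strand). Its normalized cpm was 64.5, 71.5 and 79.0 in sgCtrl and 82.2, 71.4 and 89.5 in sgN6AMT1. The conditions overlapped through sgN6AMT1 replicate 2, while the other sgN6AMT1 libraries lay above every sgCtrl library. The log2 fold change was 0.17 (standard error 0.19, 95% interval -0.22 to 0.56, edgeR adjusted p = 0.614). Processed pseudogenes of RNASEH1 exist in the genome, and how reads with several mapping positions were counted is not given, so its level is uncertain to that extent.

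The topoisomerases went in opposite directions without passing the test. TOP1MT, the mitochondrial type IB enzyme that removes supercoils (chromosome 8, 143304384 to 143359979, minus strand), was at 91.4, 98.1 and 62.5 normalized cpm in sgCtrl and 84.3, 70.1 and 63.8 in sgN6AMT1. All sgN6AMT1 values fell inside the sgCtrl range, which was set by its low replicate 3. The means were 83.97 ± 18.9 and 72.7 ± 10.5 and the log2 fold change -0.23 (standard error 0.20, edgeR adjusted p = 0.506). TOP3A, whose mitochondrial form unlinks the joined daughter circles and which also acts in the nucleus (chromosome 17, 18271428 to 18315007, minus strand), was at 41.7, 51.9 and 50.7 in sgCtrl and 58.0, 63.5 and 61.7 in sgN6AMT1. TOP3A was higher in each sgN6AMT1 library than in any sgCtrl library, with means of 48.1 ± 5.60 and 61.1 ± 2.84, a ratio of 1.27. Its log2 fold change was 0.35 (standard error 0.20, edgeR adjusted p = 0.288). Processed pseudogenes RPL7AP65 and RPL21P121 overlap TOP3A on the opposite strand, so the limits given for POLG and RNASEH1 apply to it. POLG and TOP3A were thus the 2 of 8 transcripts whose conditions did not overlap, both higher in sgN6AMT1, and 15.1% of all genes tested were higher without overlap.

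Salvage of deoxynucleosides inside mitochondria rests on a pair of kinases, TK2 for pyrimidines and DGUOK for purines. DGUOK (chromosome 2, 73926826 to 73958961, plus strand) was at 49.7, 62.3 and 57.8 normalized cpm in sgCtrl and at 47.4, 71.0 and 79.2 in sgN6AMT1. The sgN6AMT1 libraries enclosed the sgCtrl range on both sides, replicate 1 being the lowest of all 6. The log2 fold change was 0.26 (standard error 0.22, 95% interval -0.20 to 0.71, edgeR adjusted p = 0.483). An antisense RNA, DGUOK-AS1, and for SSBP1 the antisense RNA WEE2-AS1, overlap these genes on the other strand, and the same limit applies to them.

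TK2 (chromosome 16, 66508003 to 66552544, minus strand) was near the limit of detection. Only 1, 5 and 11 reads were counted for it in sgCtrl, against 6, 41 and 35 in sgN6AMT1, which is 1.35, 5.77 and 12.7 cpm against 6.25, 7.42 and 8.62 cpm of total counts. The 95% Wilson interval ran from 0.238 to 7.63 cpm for the single count of sgCtrl replicate 1 and from 7.09 to 22.7 cpm for sgCtrl replicate 3. The intervals reflect the sampling of reads alone. Whether duplicate reads were removed is not given in the sources used here, so the intervals may be too narrow. The sgN6AMT1 values all lay within the sgCtrl range, and the means of 6.60 ± 5.72 and 7.43 ± 1.18 cpm did not differ beyond their spread (two-sided exact permutation test, n = 3 and 3, p = 0.8). With 3 libraries against 3 this test could not go below 0.1, so it does not show whether TK2 differed. Without the filter on low counts, edgeR gave TK2 a log2 fold change of 0.20 (adjusted p = 0.844), and DESeq2 gave 0.16 (adjusted p = 0.934).

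Levels of different genes were compared per kb of the canonical GENCODE transcript. SSBP1 was far above the rest at 482 ± 12.1 normalized cpm per kb in sgCtrl (SD, n = 3). DGUOK followed at 52.6 ± 5.93 and TOP1MT at 43.2 ± 9.74, with overlapping libraries. POLG came next at 17.6 ± 0.73 and was separate from its neighbours on both sides. RNASEH1, POLG2, MGME1 and TOP3A, at 13.6 ± 1.37, 13.2 ± 3.05, 9.80 ± 5.18 and 7.29 ± 0.85, each overlapped the next in the order. TK2 was lowest at 1.39 ± 1.22, with no library in the TOP3A range. SSBP1 thus had the most abundant transcript of the 9, and POLG was above POLG2 in each sgCtrl library. The gap between POLG and POLG2 rests on 13 to 20 POLG2 counts per library and on canonical lengths of 4462 and 1582 bases. The isoforms expressed were not examined, so the order of POLG and POLG2 is uncertain. In sgN6AMT1 the order was the same for SSBP1, DGUOK, TOP1MT, POLG, TOP3A and TK2, while MGME1 at 16.0 ± 1.77 normalized cpm per kb, RNASEH1 at 15.3 ± 1.72 and POLG2 at 14.1 ± 1.83 overlapped each other, so that their order was not resolved.

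**Figure D3:**
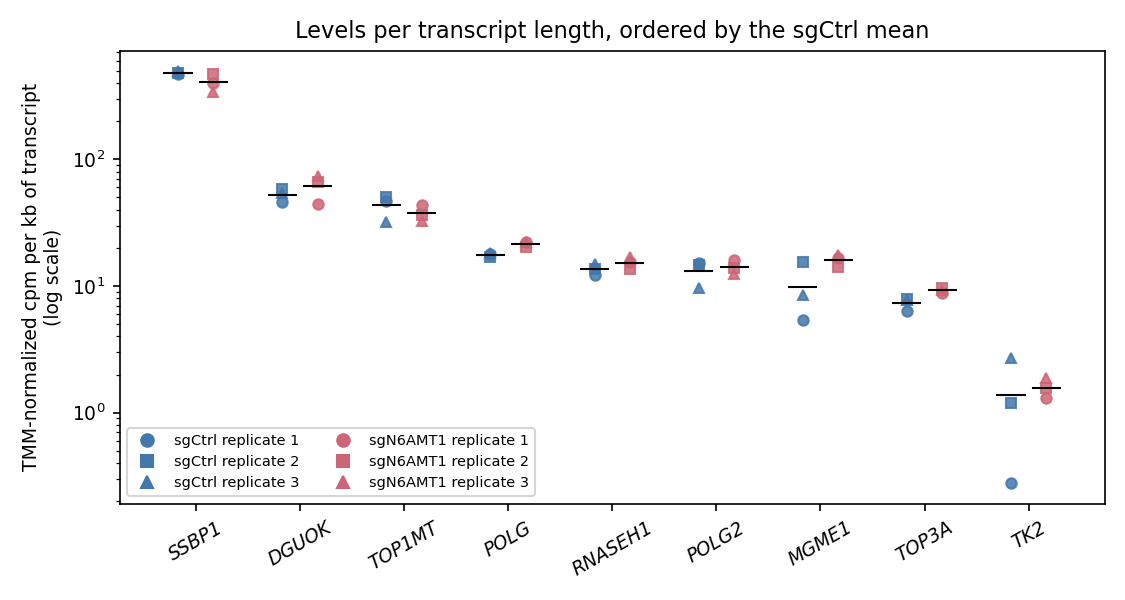
Normalized cpm per kb of transcript (log scale) of the 9 analysed transcripts, ordered by the sgCtrl mean, with colours, shapes and bars as in the plot of normalized cpm by library. SSBP1 stands alone at the top at 482 in sgCtrl, and TK2 at the bottom at 1.39.

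The 13 mt-DNA-encoded ORFs, which are read from the genome that these genes maintain, were lower in sum in every sgN6AMT1 library than in any sgCtrl library. Summed over the ORFs, 43037 ± 9907 normalized cpm in sgCtrl stood against 10813 ± 7620 in sgN6AMT1, a ratio of 0.251. Over the 9 maintenance transcripts the sum was 682.6, 748.7 and 713.2 in sgCtrl and 713.4, 748.1 and 689.0 in sgN6AMT1, with means of 715 ± 33.1 and 717 ± 29.7 and a ratio of 1.00. SSBP1, whose fold change had the opposite sign to most of the others, made up 43.6 to 46.9% of this sum in sgCtrl and 33.2 to 43.0% in sgN6AMT1. Without SSBP1 the other 8 summed to 388 ± 30.3 and 442 ± 16.9, a ratio of 1.14. The conditions did not overlap, but lay close, at 422.3 in sgCtrl replicate 2 and 426.4 in sgN6AMT1 replicate 2. SSBP1 was set aside with its values known. Taking out a large member with a negative fold change raises the ratio of the rest, so this sum is not a separate result. The counts measure RNA, and mt-DNA copy number was not analysed here.

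**Figure D4:**
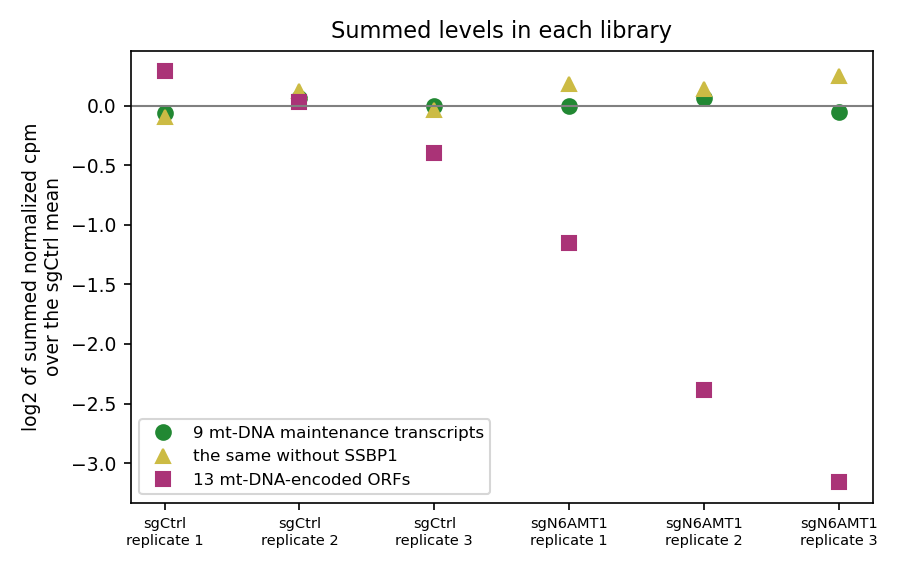
Summed normalized cpm in each library, as log2 over the mean of the 3 sgCtrl libraries, for the 9 maintenance transcripts (circles), the same without SSBP1 (triangles) and the 13 mt-DNA-encoded ORFs (squares). The ORFs are at a mean ratio of 0.251 in sgN6AMT1. The 9 maintenance transcripts are at a ratio of 1.00, with the conditions overlapping. Without SSBP1, set aside with its values known, the ratio is 1.14, and the conditions lie close together without overlap.

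Further genes of the same pathway were taken from lists of other replication and nucleoid genes, of base excision and strand break repair genes active in mitochondria, and of other genes of nucleotide supply. Of 53 genes listed, 52 were analysed and 47 tested. There were 24 positive and 23 negative fold changes, with a median of 0.0041 on the log2 scale, and 2 genes passed the threshold, both lower in sgN6AMT1, where 9.85% of all genes tested passed. Among replication and nucleoid genes, which include TWNK for the Twinkle helicase, TFAM for the mt-DNA packaging factor and POLRMT for the mitochondrial RNA polymerase, 0 of 14 tested passed in edgeR and in DESeq2, and 3 were under 0.05 before adjustment, against 26.2% of all genes. Among repair genes 0 of 13 passed in either tool, with 1 under 0.05 before adjustment. Of the nucleotide supply genes 2 of 20 passed, TYMS and CMPK1, both lower in sgN6AMT1. This share is near the 9.85% of all genes called in either direction.

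TYMS encodes thymidylate synthase, the enzyme that makes dTMP from dUMP, and its gene lies on chromosome 18 from 657653 to 673578 on the plus strand. TYMS was at 239.2, 221.5 and 180.4 normalized cpm in sgCtrl and at 134.9, 130.0 and 92.3 in sgN6AMT1, with no overlap. The log2 fold change was -0.86 (standard error 0.18, edgeR adjusted p = 0.00642). ENOSF1 overlaps TYMS on the opposite strand, so part of its counts may be antisense. CMPK1 encodes the UMP-CMP kinase of the cytosol, which feeds pyrimidine nucleotides (chromosome 1, 47333790 to 47394866, plus strand). It was at 268.8, 279.2 and 275.9 in sgCtrl and 215.0, 169.9 and 178.2 in sgN6AMT1, also with no overlap, and its log2 fold change was -0.56 (standard error 0.15, edgeR adjusted p = 0.0238). The CMPK1 call was lost when sgCtrl replicate 1, sgCtrl replicate 2 or sgN6AMT1 replicate 2 was left out (adjusted p of 0.0661, 0.105 and 0.117), at log2 fold changes of -0.58, -0.56 and -0.49 and in fits that called 301, 220 and 495 of all genes in place of 820. Both act mainly outside mitochondria, and neither is a mt-DNA maintenance gene of the 10 above.

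**Figure D5:**
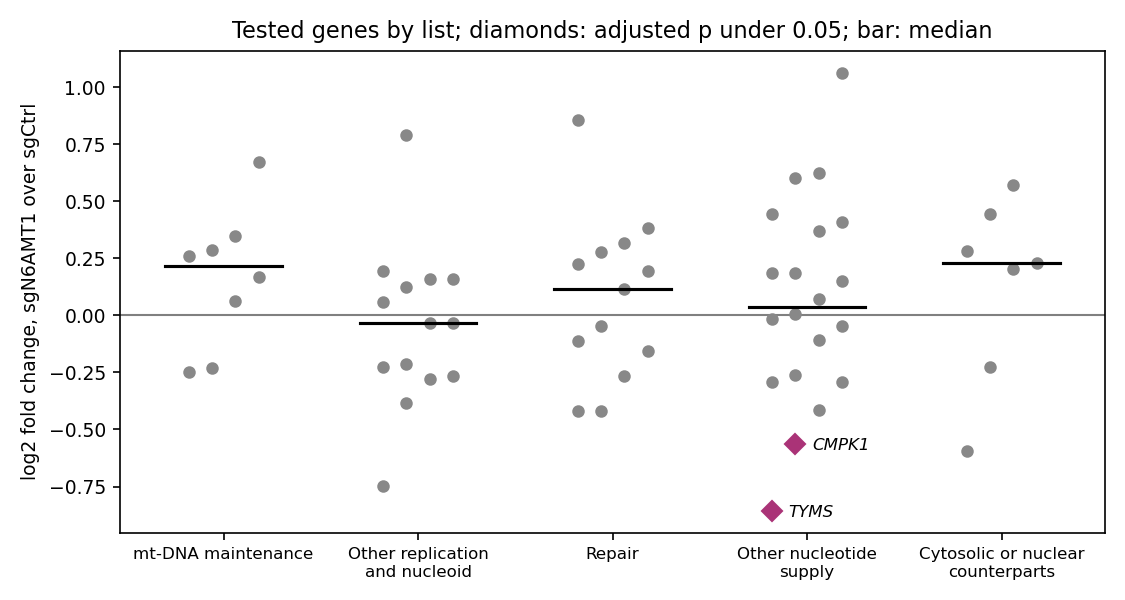
Log2 fold change (sgN6AMT1 over sgCtrl) of every tested gene in 5 lists, with a bar at each list's median and diamonds for genes with an edgeR adjusted p under 0.05. The 8 maintenance genes have a median of 0.21 and no diamond, and the only diamonds, TYMS at -0.86 and CMPK1 at -0.56, are in the list of other nucleotide supply genes.

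Related nuclear or cytosolic proteins, called counterparts, served for comparison. TOP3A and RNASEH1 act in the nucleus as well, so their counterparts do not set mitochondrial against nuclear work. Of 8 counterparts listed, 7 were tested and 0 passed the threshold in edgeR and in DESeq2, against 9.85% and 6.7% of all genes, and TK1, RPA1 and POLD1, or 3 of 7 against 26.2% of all genes, were under 0.05 before adjustment. TK1, the cytosolic thymidine kinase, was at 65.6 ± 11.2 and 93.7 ± 35.6 normalized cpm (log2 fold change 0.57, edgeR adjusted p = 0.146). POLD1, the catalytic subunit of nuclear DNA polymerase delta, was at 141 ± 16.4 and 190 ± 31.1 (0.44, adjusted p = 0.0984). RPA1, the large subunit of the nuclear single-stranded DNA-binding complex, was at 97.7 ± 10.4 and 64.7 ± 14.8 (-0.59, adjusted p = 0.0694), and passed the threshold in 4 alternative fits: without the filter on low counts, without sgN6AMT1 replicate 2, and with the replicate block alone or with the GC and length correction. The remaining log2 fold changes were 0.23 for DCK, the cytosolic deoxycytidine kinase, 0.20 for the topoisomerase TOP3B, 0.28 for the ribonuclease H subunit RNASEH2A and -0.23 for RRM2, the S-phase subunit of ribonucleotide reductase.

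The ratio of a maintenance transcript to its counterpart was then formed within each library, which removes the scaling between libraries, for 6 pairs. SSBP1 over RPA1 was 1.65, 1.62 and 1.95 on the log2 scale in sgCtrl and 2.03, 2.03 and 2.22 in sgN6AMT1. This was the only pair without overlap, the ratio being higher by 0.35 in sgN6AMT1 (two-sided exact permutation test, n = 3 and 3, p = 0.1, 0.6 after Benjamini-Hochberg adjustment over the 6 pairs), and both transcripts had negative fold changes. POLG over POLD1 differed by -0.14 (exact p = 0.5), where both transcripts had positive ones. The differences were 0.05 for TK2 over TK1, -0.04 for DGUOK over DCK, 0.19 for TOP3A over TOP3B and -0.12 for RNASEH1 over RNASEH2A, each with overlapping conditions and an exact p of 0.9, 1, 0.6 and 0.7 in that order. With 3 libraries against 3, none of these ratios could reach 0.05.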

How the data were processed

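RNA-Seq libraries of K562 cells, 3 sgCtrl and 3 sgN6AMT1, were analysed, grouped by their labels. Reads had been trimmed with cutadapt (minimum length 15, quality cutoff 2) and mapped with HISAT2 to GRCh38, and the authors deposited the raw count of each gene from the release 84 annotation, unnormalized. The counting tool, strand use and treatment of multi-mapping reads are not given in the sources used here. Extracts were cleared lysates, and libraries were described by the methods as rRNA-depleted total RNA and by the labels as polyA RNA. Replicates were separate transductions.

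From the counts, genes were filtered (filterByExpr defaults), scaled by TMM and tested by edgeR 4.0.16 (glmQLFit, glmQLFTest; R 4.3.3) over the 6 libraries without covariates, with adjustment over 8324 genes. The common biological coefficient of variation was 0.16. Within-library ratios used a pseudocount of 0.5 counts and exact permutation tests (SciPy 1.17.1). Of the symbols, 18866 of 19330 matched GENCODE v44, 882 through an older symbol. RRM2B, TOP1 and GUK1 were not analysed here. On simulated counts the calls included 65 of 96 genes with a true log2 fold change of 1, 99 of 100 with 2 and 10 of 8101 with none. The simulation gave every gene the common coefficient of variation, so these shares need not hold for the real counts.

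The genes and lists were chosen with earlier results of these data known. Named were all mt-DNA maintenance genes, every counterpart, and each further pathway gene with an adjusted p under 0.05; other genes are named as list members, as overlapping genes, for a call in an alternative fit, or as chosen after their values were seen. Alternatives were DESeq2 1.42.0, other scalings and filters, each library left out, a replicate block, correction for transcript GC content and length, thinning of the deeper libraries, a pseudocount of 1 and a threshold of 0.01.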

Additional observations from a re-analysis of the deposited data

How the results depend on the processing

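None of the maintenance genes passed the threshold in any alternative fit, the lowest adjusted p being 0.0568 for SSBP1 (GC and length correction with the replicate block), and 7 of the 8 log2 fold changes kept their sign throughout. Sizes moved more: the GC and length correction took TOP1MT from -0.23 to -0.43 (edgeR adjusted p = 0.183), DGUOK from 0.26 to 0.10 and POLG from 0.29 to 0.17, thinning took TOP3A from 0.35 to 0.18, and leaving out a library gave SSBP1 -0.38 (without sgN6AMT1 replicate 2) to -0.12 (without sgN6AMT1 replicate 3), TOP1MT -0.41 (without sgCtrl replicate 3) to -0.11 (without sgCtrl replicate 2), DGUOK 0.13 (without sgN6AMT1 replicate 3) to 0.40 (without sgN6AMT1 replicate 1) and RNASEH1 0.07 (without sgN6AMT1 replicate 3) to 0.27 (without sgN6AMT1 replicate 2). POLG2 was the exception in sign, at -0.042 with the GC and length correction, -0.0011 with that and the block, and -0.12 to 0.17 with a library left out. The replicate block gave 0 maintenance genes, 3 pathway genes and 1 counterpart (RPA1). Same-numbered libraries correlated at -0.00052, 0.083 and 0.19 in their deviations, and differently numbered ones at -0.19 to 0.14. These values do not settle whether the numbers are pairs. The main fit used no block, as the study states no covariate, and over all genes the calls went from 820 to 1195 with the block. Other pathway genes called ranged from 1 to 3 with a library left out, were 4 (ATAD3A, CMPK1, LONP1 and TYMS) with the GC and length correction and the block, and 1 (TYMS) at a threshold of 0.01. Counterparts called were 1 (RPA1) without the filter on low counts and 1 (RPA1) with the GC and length correction and the block, and 0 to 1 with a library left out: TK1 without sgN6AMT1 replicate 1, RPA1 without sgN6AMT1 replicate 2. The cause of these changes was not tested. Ratios whose sign turned were TK2 over TK1 (-0.098 at a pseudocount of 1, and -0.70 to 0.57 with a library left out), DGUOK over DCK (-0.27 to 0.21), TOP3A over TOP3B (-0.044 to 0.42) and RNASEH1 over RNASEH2A (-0.23 to 0.068). Over all genes, calls numbered 630 with DESeq2, 1201 without the filter, which moved the median log2 fold change to 0.12, and 220 without sgCtrl replicate 2.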

Other observations

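Of the 47 other pathway genes tested, 10 were under 0.05 before adjustment, including TYMS and CMPK1, against 26.2% of all genes. The rest of the 10 did not pass the threshold and are named here after their values were seen. ENDOG, a mitochondrial nuclease, was at 26.9 ± 8.27 normalized cpm in sgCtrl and 46.5 ± 4.87 in sgN6AMT1 (log2 fold change 0.79, edgeR adjusted p = 0.0606), and passed without the filter on low counts and with the replicate block. CMPK2, a mitochondrial nucleotide kinase that is also an interferon-stimulated gene, was at 10.3 ± 4.82 and 21.7 ± 1.77 (1.06, edgeR adjusted p = 0.0658), and DTYMK, the dTMP kinase, at 47.7 ± 5.06 and 74.1 ± 12.9 (0.63, edgeR adjusted p = 0.0675). In each of these genes the conditions did not overlap, as in 29.2% of all genes tested. NEIL2, a DNA glycosylase, had a log2 fold change of 0.86 (edgeR adjusted p = 0.164) and PRIMPOL, a primase-polymerase, one of -0.75 (edgeR adjusted p = 0.175), the conditions overlapping for PRIMPOL. SHMT2 and MPV17, of the nucleotide supply list, had 0.45 and 0.60 (edgeR adjusted p = 0.134 and 0.186). ATAD3A, of the nucleoid list, had -0.38 (edgeR adjusted p = 0.104). SHMT2, MPV17 and ATAD3A were each without overlap. ATAD3A passed without sgN6AMT1 replicate 3, and with the GC and length correction with or without the block.

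NT5M, the deoxynucleotidase of the mitochondrial matrix, did not pass the filter on low counts and was likewise named after its values were seen. Its counts were 4, 8 and 5 for sgCtrl and 1, 8 and 10 for the deeper sgN6AMT1 libraries, or 5.38, 9.23 and 5.89 against 1.05, 1.46 and 2.57 normalized cpm. Without the filter, edgeR gave a log2 fold change of -1.87 (adjusted p = 0.0645), and DESeq2 gave -1.95 with an unadjusted p of 0.0153 and no adjusted value.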
